A study of Mus musculus with 12 samples.

Results

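The 3 translating ribosome affinity purification (TRAP) libraries of FosB knockout (KO) mice were compared with the 3 input libraries made from the same pools of mice. These 6 libraries, of 12 in the series, were taken by their labels and paired by pool number (pools 2, 3 and 4, 3 mice in each as the sources are labelled, 3 or 4 as the extraction text has it), and of 37310 annotated genes 12463 had enough counts to be tested. All mice of the series were C57BL/6 and carried Rosa26eGFP/L10a, a Cre-dependent green fluorescent protein (GFP) fused to the ribosomal protein L10a. The KO mice were FosB fl/fl in addition and the wild-type (WT) mice, in 3 TRAP and 3 input libraries, were not floxed. Every mouse received the retrograde vector HSV-hEf1α-Cre in the nucleus accumbens (NAc), and ventral hippocampus (vHPC) was punched out under fluorescence 3 weeks later. Cre acts in whichever cells take up the vector at the injection site, so by design the deletion and the tag within the punch are limited to those cells, whose share of the input is not known. Each of the 6 KO libraries thus comes from floxed, injected mice, and the comparison is of purified with total RNA within a genotype, not of KO with WT. The labels give the tissue of every library as Hippocampus neurons, although the inputs held glial and vascular markers, and they give no ages.

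TRAP pulls tagged ribosomes out of a lysate with antibodies to GFP, and the mRNAs being translated on them come along. The neurons of interest are glutamatergic pyramidal cells of ventral CA1 and the subiculum, whose axons carry contextual and affective information to the NAc. The input holds the RNA of everything else in the punch as well: interneurons, granule cells, glia, blood vessels, nuclei and mitochondria. A TRAP to input ratio above 1 therefore means only that an RNA takes a larger share of the purified pool than of the lysate.

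Of the 12463 genes, 3977 (31.9%) passed an adjusted p of 0.05 in edgeR's quasi-likelihood test of TRAP against input with the pool as a block and Benjamini-Hochberg adjustment, the test behind every adjusted p given here. In TRAP 1860 genes (14.9%) were higher and 2117 (17.0%) lower, and 3933 of the 3977 calls had the direction of the fit in all 3 pools. The depletions were far deeper than the enrichments. Among the called genes, 72 were at least 2-fold higher and 10 at least 4-fold higher, none 8-fold, while 1197 were lower by at least as much as 2-fold, 620 by 4-fold and 322 by 8-fold. These include 121 genes with at most 3 counts in every TRAP library, which were tested because of their input counts and whose fitted ratio depends on the prior count. Without them 1076 were lower by 2-fold, 499 by 4-fold and 206 by 8-fold. Every TRAP library lay above every input library for 2614 genes (21.0%) and below for 2692 (21.6%). The number of genes called higher was 1174 without pool 4 and 1263 without pool 2, and the number called lower 1642 and 1771.

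Of 19 tested genes annotated as microRNAs 10 were lower in TRAP and none higher. The sequences printed next are those of 2 with a deep loss and of 1, with a high level in input, among the 9 that were not called. Positions are in the NCBIM37 (mm9) mouse assembly used by the files. AL596130.1 (chr11:87156229-87156299, plus strand) is annotated as a microRNA gene, but its 71 bases are those of an ID element, the short repeat family whose founder gene makes BC1, an abundant RNA of rodent neurons that is not translated. AC091522.1, AC134325.1 and AC163629.1 have the same 71 bases, and AC133502.1 (chr7:151066243-151066313, minus strand) differs from them by C29T and C60T, counted from the 5′ end of AL596130.1 and shown as capitals.
AL596130.1: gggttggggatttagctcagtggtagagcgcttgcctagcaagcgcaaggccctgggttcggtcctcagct
AC133502.1: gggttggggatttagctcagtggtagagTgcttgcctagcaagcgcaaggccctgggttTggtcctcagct
The 57 bases of mmu-mir-689-2 (chr16:11144218-11144274, plus strand) are a stretch of 28S ribosomal RNA, and mmu-mir-2134-4 has the same sequence.
mmu-mir-689-2: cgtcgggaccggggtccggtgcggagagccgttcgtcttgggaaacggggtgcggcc

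AL596130.1 stood at 21.8, 13.7 and 19.8 CPM (counts scaled to a common library size, with trimmed mean of M values factors over the 12 libraries) in TRAP pools 2, 3 and 4 and at 2500, 8693 and 1972 CPM in the matching inputs. The log2 ratio of TRAP to input was -7.61 (SE 0.89, adjusted p = 0.0333). Every input was above every TRAP library, and the input of pool 3 was far above the other inputs. The call was lost without pool 2 or pool 4 (adjusted p = 0.181 each). AC091522.1 and AC134325.1, the same letters at other places, gave -6.81 and -7.15, while AC163629.1 and AC133502.1 stood at 81.2 to 205 and 25.3 to 132 CPM in input with no more than 3 counts in a TRAP library. All 16 tested genes of the misc_RNA class, which holds 7SK, Y RNA and the RNAs of RNase P and RNase MRP among others, were lower in TRAP, with a median of -5.32. The ribosomal stretch mmu-mir-689-2 behaved differently, at 13767, 17290 and 16094 CPM in TRAP and 15918, 11392 and 14329 CPM in input. Its libraries overlapped and its log2 ratio of 0.17 (SE 0.14, adjusted p = 0.412) was not called. Reads of these loci fit several places in the genome, and the deposited counts hold only the reads that aligned to 1 place, so the division among identical copies is uncertain.

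KO TRAP libraries held 3463569 to 4085491 counts in genes and KO inputs 4271780 to 4636374, so that 3 counts were worth 0.732 to 0.837 and 0.653 to 0.710 CPM. Genes with any count numbered 15606 to 15989 in TRAP and 17255 to 17898 in input. Ratios of single pools correlated across the tested genes at r = 0.706, 0.737 and 0.740, and the median SD between pools was 0.279 on the log2 scale. No library of a group repeated another, identical counts making up 3.23 to 4.32% of genes. The choroid plexus gene Ttr, which was not tested, stood at 230 CPM in the input of pool 4 and at 1.66 and 0.444 CPM in the inputs of pools 2 and 3.

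Fosb (chr7:19888070-19895394, minus strand) was read at 29.3, 18.8 and 21.5 CPM in KO TRAP and 17.0, 16.0 and 14.8 CPM in KO input. Every TRAP library was above every input library, but the log2 ratio of 0.51 (SE 0.22) had an adjusted p of 0.0846 and was not called. In WT the gene stood at 45.2, 32.0 and 40.1 CPM in TRAP and 30.2, 22.2 and 24.4 CPM in input. Levels were lower in KO than in WT in both kinds of library, without overlap, and the difference of the log2 ratios was -0.09 (SE 0.29, edgeR adjusted p = 1), which was not detectable. The counts cover the whole gene, the exons outside the deletion included, so they do not measure how complete the recombination was.

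**Figure D1:**
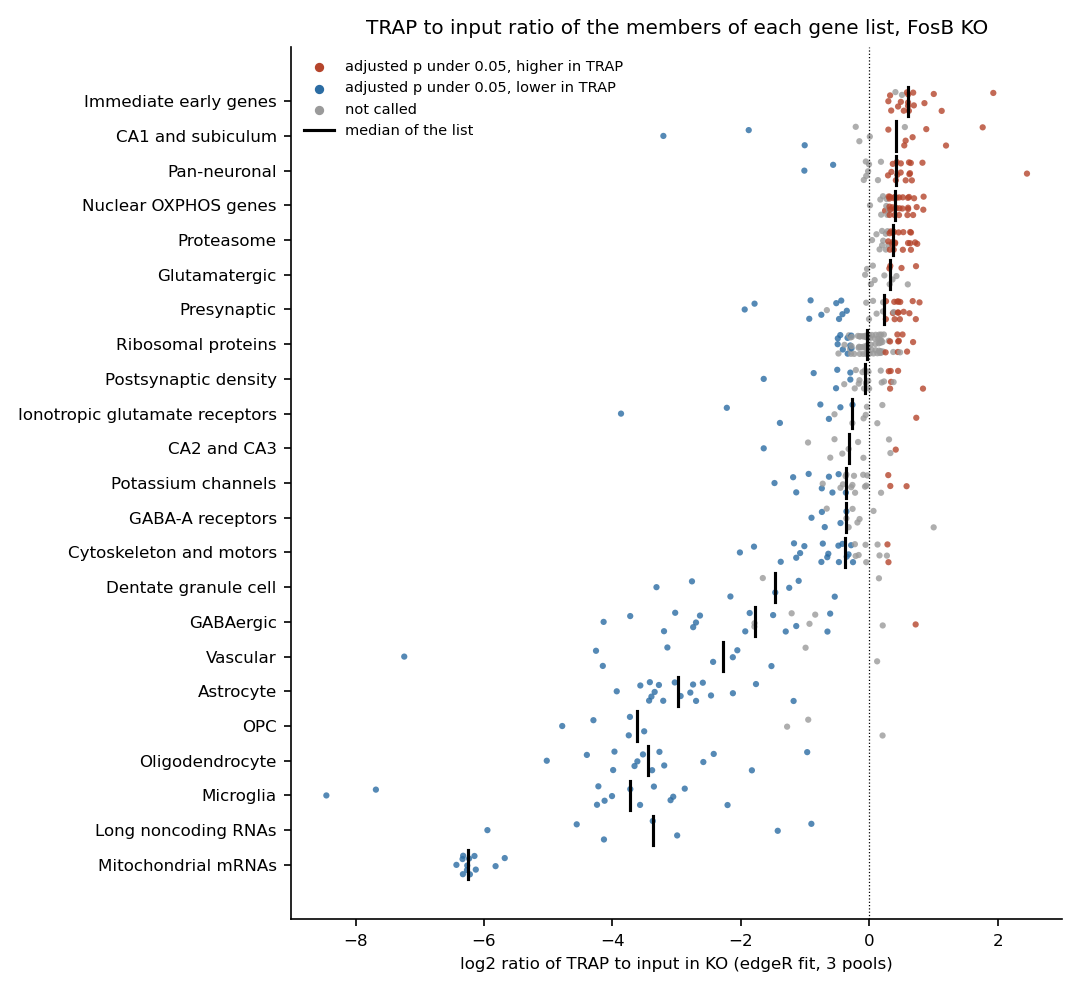
Log2 ratio of TRAP to input in FosB KO (x axis, edgeR fit over 3 pools) for every tested member of 23 gene lists (rows), 1 point per gene, red where higher and blue where lower in TRAP at an adjusted p under 0.05, grey where not called, with a black bar at the list's median. The pan-neuronal and glutamatergic lists sit right of 0, with medians of 0.41 and 0.32, the dentate and GABAergic lists left of it at -1.46 and -1.79, and the glial lists, long noncoding RNAs and mitochondrial mRNAs far left of it, down to -6.25. The farthest points on the left belong to genes with at most a few counts in TRAP, whose fitted ratio depends on the prior count.

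Genes of neurons in general took a larger share of TRAP than of input. In bulk RNA, a different number of cells of a type and a different amount of RNA per cell cannot be told apart. Of 25 tested, 16 (64.0%) were higher, against 14.9% of all genes, and 2 were lower, with a median log2 ratio of 0.41 against 0.01 over all genes, and their summed level in TRAP was 133, 136 and 137% of that in the input of the same pool, or 120, 120 and 116% without Kalrn. For genes common to all cells the sums were 135 to 148% and the median 0.42. Kalrn, which encodes the guanine nucleotide exchange factor kalirin of dendritic spines, stood at 3033, 3740 and 4574 CPM in TRAP and 646, 706 and 673 CPM in input. All TRAP libraries were several times above all inputs, at a log2 ratio of 2.46 (SE 0.09, adjusted p = 3.54e-15). Uchl1, a neuronal deubiquitinase, Eno2, the neuronal enolase, Rbfox3, which encodes NeuN, and the synaptic fusion protein gene Snap25 were higher by 0.83, 0.66, 0.49 and 0.44. The members that went the other way include Mtap2, the dendritic microtubule protein MAP2, at 1513, 1589 and 1454 CPM in TRAP and 3001, 2998 and 3102 CPM in input (log2 ratio -1.01, SE 0.08, adjusted p = 9.38e-10). TRAP and input were clearly apart for Mtap2 as well, in the opposite direction to Kalrn.

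Of 14 genes of glutamatergic neurons 4 (28.6%) were higher and none lower, against 14.9 and 17.0% of all genes. The median was 0.32, and 2 were higher without pool 4. Nrgn, the calmodulin-binding protein neurogranin of spines, stood at 3219, 4209 and 3705 CPM in TRAP and 2092, 2567 and 2008 CPM in input (log2 ratio 0.73, SE 0.08, adjusted p = 2.46e-07). Slc17a7, the vesicular glutamate transporter VGLUT1, stood at 663, 588 and 707 CPM in TRAP and 504, 514 and 526 CPM in input (0.33, SE 0.08, adjusted p = 0.00479). Both genes were higher in every TRAP library than in every input, although the call of Slc17a7 was lost without pool 2 (adjusted p = 0.0827) or pool 4 (adjusted p = 0.113). Camk2a, the kinase subunit of forebrain pyramidal cells, gave nearly the same level in both, 3585 to 3710 CPM in TRAP and 3222 to 3543 CPM in input (0.08, adjusted p = 0.439).

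Of 14 tested CA1 and subiculum genes 7 (50.0%) were higher and 3 (21.4%) lower, against 14.9 and 17.0% of all genes, with a median of 0.42. Without pool 2 the median was 0.13, with 6 higher and 4 lower. Fibcd1, a marker of CA1, stood at 139, 184 and 223 CPM in TRAP and 65.6, 37.0 and 57.3 CPM in input (log2 ratio 1.77, SE 0.22, adjusted p = 0.000578). Dcn, the proteoglycan decorin, stood at 79.5, 90.5 and 153 CPM in TRAP and 49.9, 44.4 and 41.4 CPM in input (1.19, SE 0.19, adjusted p = 0.00065). For both genes TRAP and input did not overlap. Itpka, an inositol kinase, and Mpped1 were higher by 0.54 and 0.57, while Wfs1, a classical CA1 marker, was not called at -0.21 (adjusted p = 0.335).

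The 3 members that fell were Satb1 (-1.88), a chromatin organiser also found in interneurons, Fn1 (-3.21), the fibronectin gene also made by vessels, and Zbtb20 (-1.01), also made by astrocytes and granule cells. The part of these other cells in the falls was not tested. The call of Zbtb20 was lost without the pool block. Of 9 tested dentate genes none was higher and 7 (77.8%) were lower, against 14.9 and 17.0% of all genes, with a median of -1.46. Prox1, the transcription factor that defines granule cells, stood at 5.86, 7.07 and 4.40 CPM in TRAP and 36.9, 72.5 and 63.4 CPM in input (-3.31, SE 0.22, adjusted p = 6.59e-11), with every input above every TRAP library. C1ql2, a secreted synapse organiser of mossy fibres, and Stxbp6 fell by 2.16 and 1.10. The CA2 and CA3 list had 1 of 11 higher (Necab2, 0.41), or 9.09%, and as many lower (Homer3, -1.64, which overlaps an antisense gene over 25.4% of its exon length), shares below those of all genes, a median of -0.32, and 3 in each direction without pool 3.

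Genes of GABAergic interneurons were mostly lower, and pool 2 stood apart. Of 21 tested 14 (66.7%) were lower and 1 (4.76%) higher, against 17.0 and 14.9% of all genes, with a median of -1.79. Their summed level in TRAP was 71.7, 53.5 and 50.1% of the input in pools 2, 3 and 4 (55.3 to 66.2% in the WT pools). Gad1 stood at 172, 53.6 and 45.2 CPM in TRAP and 293, 246 and 259 CPM in input, and Gad2 at 186, 27.6 and 30.8 CPM in TRAP and 239, 170 and 204 CPM in input. These genes encode the GABA-synthesising enzymes, and Slc32a1, the vesicular GABA transporter, stood at 26.5, 6.58 and 2.93 CPM in TRAP and 24.1, 25.3 and 16.1 CPM in input. TRAP pool 2 was several times above TRAP pools 3 and 4 for all of them, and within the range of the inputs for Gad2 and above all inputs for Slc32a1. The peptide gene Sst showed the same, at 175, 58.3 and 58.1 CPM in TRAP and 173, 175 and 142 CPM in input.

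None of these 4 genes was called in the robust edgeR fit of 3 pools (Gad1 -1.79, adjusted p = 0.15; Gad2 -1.79, adjusted p = 0.254; Slc32a1 -1.21, adjusted p = 0.0742; Sst -0.93, adjusted p = 0.295). Without pool 2 all were lower (Gad1 -2.37, adjusted p = 3.35e-14; Gad2 -2.70, adjusted p = 1.05e-14; Slc32a1 -2.17, adjusted p = 3.47e-05; Sst -1.46, adjusted p = 5.36e-09), and 18 of the list were called lower with a median of -2.17. The same 4 genes were called lower without pool 3, where 18 of the list were lower with a median of -1.48, with log2 ratios of -1.56 (adjusted p = 2.73e-40), -1.37 (adjusted p = 2.5e-28), -0.81 (adjusted p = 0.0303) and -0.60 (adjusted p = 7.62e-06) in the same order. Without pool 4 none of the 4 was called (adjusted p = 0.388, 0.577, 0.124 and 0.65), and 13 of the list were lower with a median of -1.42. With all 3 pools, edgeR without robust dispersion called all 4 and 18 of the list lower, and DESeq2 called Gad1 and Gad2 and 15 of the list, so the calls rest on how the spread was estimated as well as on the pools. Whether interneurons carried the tag in pool 2 was not tested. Pvalb, the calcium buffer of basket cells, stood at 3.91, 0.488 and 1.47 CPM in TRAP and 22.5, 25.1 and 25.5 CPM in input. TRAP pool 2 was again the highest TRAP library, but it lay far below every input, and the call was kept with any pool left out (log2 ratio -3.72, adjusted p = 3.97e-07, -4.68 without pool 2 and -3.21 without pool 3). Cck was the member that rose, from 164, 165 and 147 CPM in input to 272, 261 and 259 CPM in TRAP (0.72, SE 0.09, adjusted p = 2.72e-06), and this peptide is made by pyramidal cells as well as by basket cells.

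**Figure D2:**
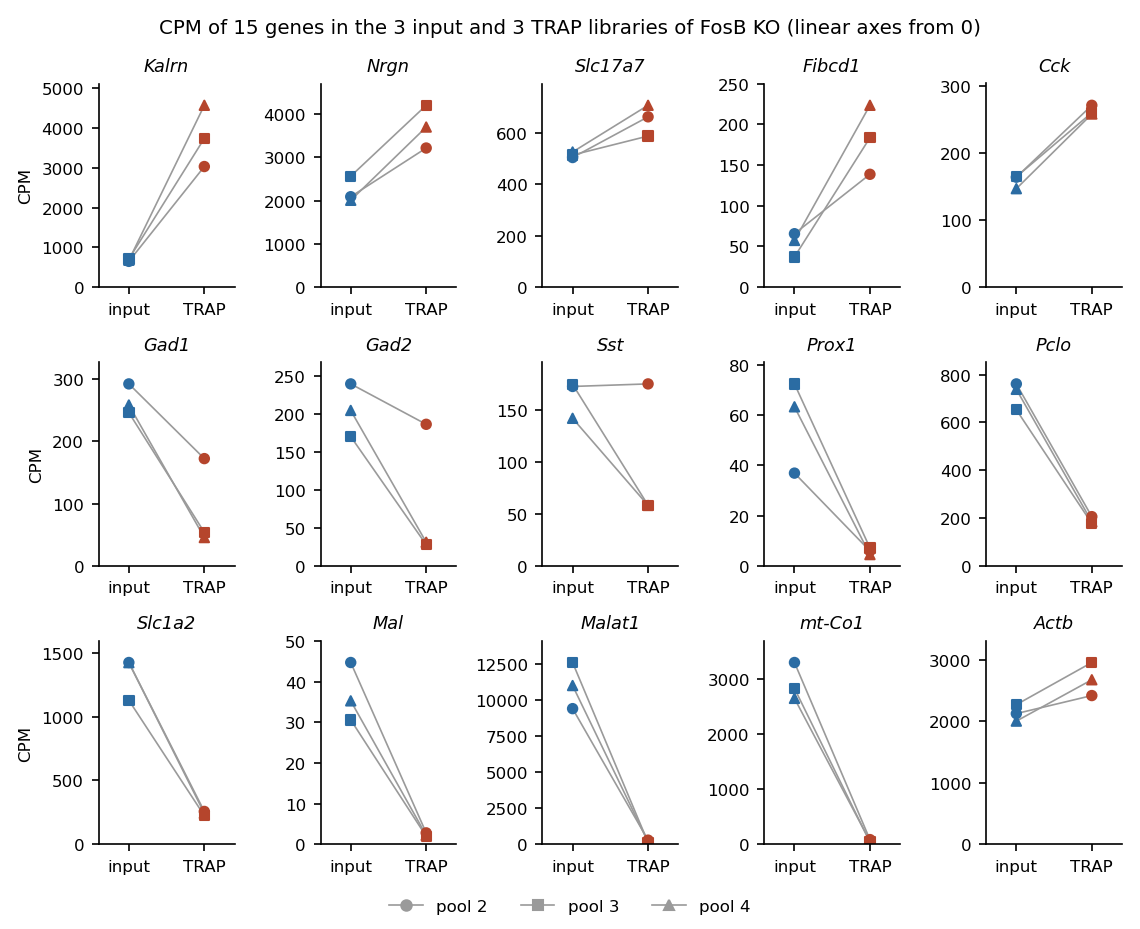
CPM (y axes, linear from 0) of 15 genes in the 3 input and 3 TRAP libraries of FosB KO, with a grey line joining the libraries of 1 pool (circle, pool 2; square, pool 3; triangle, pool 4). Kalrn, Nrgn, Fibcd1 and Cck rise in each pool and Prox1, Pclo, Slc1a2, Mal, Malat1 and mt-Co1 fall in each, while Gad1, Gad2 and Sst in TRAP pool 2 lie at 172, 186 and 175 CPM, apart from the other TRAP libraries.

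Every tested marker of astrocytes, oligodendrocytes and microglia was lower in TRAP. The 18 astrocyte genes had a median of -2.98 and their sum in TRAP was 14.9, 16.8 and 16.9% of that in input. Slc1a2, the glutamate transporter GLT-1, stood at 257, 224 and 243 CPM in TRAP and 1424, 1128 and 1423 CPM in input, a 5.52-fold drop (-2.46, SE 0.09, adjusted p = 8.59e-16). Gfap, the astrocyte filament protein, stood at 10.0, 13.9 and 12.5 CPM in TRAP and 147, 117 and 108 CPM in input (-3.34, SE 0.16, adjusted p = 2.4e-13). For both genes all inputs were far above all TRAP libraries. The apolipoprotein genes Apoe and Clu lay at log2 ratios of -3.43 and -1.18.

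The 14 tested oligodendrocyte genes had a median of -3.45 and sums of 17.8, 22.2 and 22.0% of input. Mal, a membrane protein of myelin, stood at 2.79, 1.95 and 2.20 CPM in TRAP and 44.7, 30.6 and 35.3 CPM in input, 15.9-fold lower (-3.99, SE 0.28, adjusted p = 1.18e-10). Mbp, whose mRNA is carried into myelin, was lower by less, at 134, 114 and 141 CPM in TRAP and 321, 187 and 258 CPM in input (-0.97, SE 0.11, adjusted p = 2.65e-07). Neither gene's libraries overlapped between TRAP and input. Of 8 oligodendrocyte precursor genes 5 were lower, with a median of -3.62, among them Pdgfra (-3.75), the growth factor receptor of these cells, and Olig1 (-3.73). The 13 tested microglial genes had a median of -3.72, or -3.57 with genes absent from TRAP set at their bound, and sums of 6.59, 8.54 and 10.2% of input. Laptm5, a lysosomal protein gene of leukocytes, had no count in any KO TRAP library and 15.1, 8.21 and 8.49 CPM in input, which makes it at least 13.8-fold lower against 3 counts per library. C1qb, a complement subunit, stood at 0.837, 0.975 and 0.977 CPM in TRAP and 25.1, 18.0 and 12.6 CPM in input (-4.24, adjusted p = 6.1e-08). Of 10 tested vascular genes 8 were lower, with a median of -2.28, including the pericyte gene Rgs5 (-1.52) and the endothelial receptor gene Flt1 (at most 4 counts in a TRAP library and 5.66 to 9.76 CPM in input).

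RNA of the mitochondrial genome, which is translated by ribosomes inside the organelle, was nearly absent from TRAP. All 21 tested genes were lower, with a median of -6.32, and the genome's share of counts was 0.0471 to 0.130% in TRAP against 7.54 to 9.05% in input. The mitochondrial ribosomal RNA mt-Rnr2 stood at 500, 136 and 225 CPM in TRAP and 43786, 36568 and 35812 CPM in input (-7.28, SE 0.57, adjusted p = 0.0164, and adjusted p = 0.125 without pool 4). The oxidase subunit gene mt-Co1 stood at 84.0, 39.0 and 56.2 CPM in TRAP and 3308, 2837 and 2655 CPM in input, 51.1-fold lower (-5.68, SE 0.16, adjusted p = 3.55e-10). TRAP pool 2 held more of both than the other TRAP pools, yet far less than any input. For mt-Co1, 81.4% of 75-base stretches of its exons were not placed uniquely in the genome.

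Nuclear genes for subunits of the same respiratory chain went the other way. Of 37 tested 29 (78.4%) were higher and none lower, against 14.9 and 17.0% of all genes. The median was 0.39, the sums were 128, 138 and 143% of input, and 19 were higher without pool 4. Atp5d, a subunit of ATP synthase, stood at 483, 484 and 435 CPM in TRAP and 292, 266 and 219 CPM in input (0.85, SE 0.09, adjusted p = 1.66e-07). Ndufa1, a subunit of complex I, stood at 63.6, 70.2 and 63.7 CPM in TRAP and 38.8, 42.1 and 36.6 CPM in input (0.74, SE 0.14, adjusted p = 0.000246). Every TRAP library was above every input for both.

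Long noncoding RNAs, most of them known to stay in the nucleus, were also lower, all 7 tested with a median of -3.37. Malat1, a scaffold RNA of nuclear speckles, stood at 282, 122 and 163 CPM in TRAP and 9400, 12599 and 11000 CPM in input, 61.7-fold lower (-5.95, SE 0.55, adjusted p = 0.0218, and adjusted p = 0.166 without pool 4). Meg3, an imprinted noncoding RNA, Miat and Rian lay at log2 ratios of -4.56, -4.13 and -1.43. Gas5, which leaves the nucleus and is bound by ribosomes, stood at 43.5, 60.0 and 58.9 CPM in TRAP and 111, 102 and 88.0 CPM in input and had the smallest drop of these 7 (-0.90, SE 0.14, adjusted p = 2.8e-05). All inputs were above all TRAP libraries for Malat1 and for Gas5. Of 169 tested long intergenic noncoding RNAs, taken by their annotation, 32 (18.9%) were lower, close to the 17.0% of all genes, and 3 (1.78%) higher, with a median of -0.42.

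Genes that most cells use were mostly higher in TRAP, with a median of 0.42. Of 24 tested 15 (62.5%) were higher and 3 (12.5%) lower, against 14.9 and 17.0% of all genes. Actb, the cytoplasmic actin gene, stood at 2416, 2953 and 2673 CPM in TRAP and 2123, 2268 and 2001 CPM in input (0.32, SE 0.08, adjusted p = 0.00359, and adjusted p = 0.156 without pool 4). Gapdh, the glycolytic enzyme gene, stood at 581, 658 and 584 CPM in TRAP and 425, 357 and 370 CPM in input (0.65, SE 0.09, adjusted p = 9.17e-06), and Tuba1a, a neuron-rich tubulin, at 566, 624 and 553 CPM in TRAP and 313, 283 and 279 CPM in input (0.98, SE 0.09, adjusted p = 1.25e-08). TRAP was above input in each library for these genes, of which 20.8, 54.3 and 83.6% of exon stretches were not placed uniquely in the genome. The members that fell were B2m, Gusb and Rpl13a. B2m, the class I light chain, lay at -1.31, and its call was lost without the pool block. Gusb, a lysosomal enzyme gene, lay at -1.71, and its call was lost with DESeq2 and without pool 2 (adjusted p = 0.275). The ribosomal protein gene Rpl13a lay at -0.45, and its call was lost in the fit of all 12 libraries.

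Proteasome subunit genes were higher in 21 of 31 cases (67.7%) and lower in none, against 14.9 and 17.0% of all genes. Their median was 0.37, and 12 were higher without pool 4. Psmb2 and Psmd8, of the catalytic core and the regulatory cap, lay at 0.75 and 0.65. Of 28 genes of the secretory pathway in the endoplasmic reticulum 9 (32.1%) were higher and none lower, against the same shares, with a median of 0.25. Of 26 translation factors 10 (38.5%) were higher and 2 (7.69%) lower, again against 14.9 and 17.0% of all genes, with a median of 0.16. Without pool 4, 3 were higher, and without pool 2, 1 was lower. Eef1a2, the elongation factor form of neurons and muscle, stood at 1772, 2118 and 2059 CPM in TRAP and 1313, 1347 and 1284 CPM in input (0.58, SE 0.08, adjusted p = 8.96e-06), while Pabpc1, the poly(A)-binding protein, stood at 109, 113 and 112 CPM in TRAP and 178, 173 and 164 CPM in input (-0.64, SE 0.10, adjusted p = 3.99e-05). The libraries of these genes did not overlap, and their directions were opposite. The 79 tested cytosolic ribosomal protein genes were balanced, with 9 higher, 9 lower and a median of -0.03, shares of 11.4% in each direction that lie below those of all genes. Without pool 3 the median was 0.08 and 14 were higher, without pool 2 the median was 0.01 and 5 were lower, and without pool 4 the median was -0.10, with 6 higher and 12 lower. Rpl10a, the endogenous gene of the tagged subunit, stood at 75.6, 84.6 and 91.3 CPM in TRAP and 60.8, 47.7 and 47.7 CPM in input (0.68, SE 0.14, adjusted p = 0.000544); the fusion protein derives from the same coding sequence, and how reads of the transgene were counted is not given in the sources used here.

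Of 34 tested presynaptic genes 16 (47.1%) were higher and 10 (29.4%) lower, against 14.9 and 17.0% of all genes, with a median of 0.24. Sv2b, a vesicle glycoprotein of glutamatergic terminals, stood at 520, 544 and 618 CPM in TRAP and 325, 304 and 340 CPM in input (0.78, SE 0.09, adjusted p = 3.24e-07). The membrane fusion genes Nsf and Stx1a were higher by 0.72 and 0.68. Pclo, the giant active zone scaffold piccolo, stood at 205, 177 and 184 CPM in TRAP and 762, 653 and 739 CPM in input (-1.94, SE 0.09, adjusted p = 5.9e-14), and its partner Bsn, bassoon, lay at -0.75. Each of these genes had every TRAP library on 1 side of every input.

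Postsynaptic density genes had 6 of 28 higher, 6 lower (21.4% in each direction, against 14.9 and 17.0% of all genes) and a median of -0.06, and 3 in each direction without pool 2. Baiap2, an insulin receptor substrate that shapes spine membranes, was at 0.84 and Shank1, a scaffold, at -0.52. Of 15 tested ionotropic glutamate receptor genes 1 (6.67%) was higher and 7 (46.7%) lower, with a median of -0.26. Grin1, the obligatory NMDA receptor subunit, stood at 255, 209 and 234 CPM in TRAP and 140, 126 and 151 CPM in input (0.73, SE 0.10, adjusted p = 3.61e-06) and an antisense gene overlaps 13.5% of its exon length. Grik2, a kainate receptor subunit, stood at 16.5, 13.9 and 18.8 CPM in TRAP and 41.4, 38.8 and 47.5 CPM in input (-1.39, SE 0.18, adjusted p = 3.02e-06). TRAP lay wholly above input for the NMDA subunit and wholly below it for the kainate subunit, and the AMPA subunit gene Gria2 was not called (0.13, adjusted p = 0.295). The GABA-A receptor list had none higher and 5 of 13 (38.5%) lower, with a median of -0.36 and 3 lower without pool 4. Gabrb2, a subunit of the common synaptic form, lay at -0.74.

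Of 26 potassium channel genes 3 (11.5%) were higher and 9 (34.6%) lower, against 14.9 and 17.0% of all genes, with a median of -0.36. Without pool 4 the number lower was 4, and without pool 2 none was higher. Kcnh7 (-1.19) and Kcnc2 (-1.14), an ERG channel and a fast delayed rectifier of interneurons, were among those lower. Of 27 sodium, calcium and HCN channel genes 3 were higher and 3 lower (11.1% in each direction, below the shares of all genes, and 1 lower without pool 4), with a median of -0.06. Cacnb1, a calcium channel beta subunit, stood at 386, 441 and 383 CPM in TRAP and 210, 206 and 211 CPM in input (0.93, SE 0.09, adjusted p = 4.96e-08), and Scn1a, the sodium channel of fast-spiking interneurons, at 20.4, 20.2 and 23.4 CPM in TRAP and 60.3, 49.2 and 62.1 CPM in input (-1.43, SE 0.16, adjusted p = 3.58e-07). These libraries did not overlap between TRAP and input. Large cytoskeletal and motor proteins had 2 of 28 members higher (none without pool 2 or pool 4 and 5 without pool 3) and 18 lower, with a median of -0.38. Macf1, a spectraplakin that links microtubules and actin, stood at 128, 129 and 134 CPM in TRAP and 499, 426 and 428 CPM in input (-1.80, SE 0.10, adjusted p = 1.14e-12), and its relative Dst lay at -1.38. Utrn, a relative of dystrophin, lay at -2.01.

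Immediate early genes, which neuronal activity induces within minutes, were higher in TRAP. Of 19 tested 17 (89.5%) were higher and none lower, against 14.9 and 17.0% of all genes. The median was 0.60 (0.73, 0.58 and 0.54 in pools 2, 3 and 4), and 11 were higher without pool 4. Junb, an AP-1 subunit, stood at 181, 126 and 138 CPM in TRAP and 72.9, 67.0 and 60.6 CPM in input (1.13, SE 0.12, adjusted p = 9.87e-08). Egr2, a zinc finger factor, stood at 27.3, 15.8 and 12.9 CPM in TRAP and 7.34, 3.55 and 3.70 CPM in input (1.93, SE 0.31, adjusted p = 3.99e-05), and Arc, the regulator of AMPA receptor traffic, at 180, 163 and 145 CPM in TRAP and 100, 88.3 and 78.8 CPM in input (0.86, SE 0.10, adjusted p = 1.22e-06). All TRAP libraries were above all inputs for these 3 genes. Fos stood at 49.4, 32.2 and 41.0 CPM in TRAP and 27.5, 25.7 and 21.3 CPM in input (0.69, SE 0.18, adjusted p = 0.0039), and without pool 4 it missed the threshold (adjusted p = 0.0518). Fosb and Ier2 were the 2 not called. The WT list had 12 of 19 higher with a median of 0.61.

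The promoters of these genes were searched for the sites through which activity is known to act, in RefSeq's 250 bases before the start (GRCm38.p6, both strands), for the 15 tested members that the reference holds. The cyclic AMP response element TGACGTCA, bound by CREB, was found in Dusp1 and Btg2, 2 of 15 (13.3%) against 3.29% of 8492 tested genes with a promoter. The AP-1 site TGANTCA was found in none of the 15 and in 4.88% of all, and the CArG box in 1 of 15 and 1.42%. The 2 promoters with the element (capitals) are those of Dusp1, a MAP kinase phosphatase (chr17:26508473-26508722, minus strand), and Btg2, an antiproliferative factor (chr1:134079156-134079405, minus strand).
Dusp1: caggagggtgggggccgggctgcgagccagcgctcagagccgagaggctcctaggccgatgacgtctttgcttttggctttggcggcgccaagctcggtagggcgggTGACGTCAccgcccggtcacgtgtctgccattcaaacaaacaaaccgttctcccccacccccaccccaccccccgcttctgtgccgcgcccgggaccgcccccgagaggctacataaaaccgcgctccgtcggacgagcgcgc
Btg2: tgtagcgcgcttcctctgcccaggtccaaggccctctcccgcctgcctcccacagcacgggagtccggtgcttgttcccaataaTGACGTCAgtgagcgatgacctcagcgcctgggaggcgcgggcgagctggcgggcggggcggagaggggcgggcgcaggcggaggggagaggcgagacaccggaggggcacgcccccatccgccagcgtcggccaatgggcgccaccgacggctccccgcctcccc
Dusp1 stood at 38.2, 29.0 and 26.4 CPM in TRAP and 18.2, 19.3 and 22.9 CPM in input (0.61, SE 0.20, adjusted p = 0.0256, and adjusted p = 0.284 without pool 2). Btg2 stood at 28.2, 21.7 and 32.5 CPM in TRAP and 16.8, 17.5 and 21.6 CPM in input (0.54, SE 0.20, adjusted p = 0.0462), and was not called without pool 2 (adjusted p = 0.213) or pool 4 (adjusted p = 0.208). Of 12 alternative settings, 7 lost the call of Btg2 and 2 that of Dusp1, DESeq2 among them for both. TRAP lay above input in each pool for both genes. Both log2 ratios are close to the list's median.

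Of 18 tested neuropeptide genes 7 were higher (38.9% against 14.9% of all genes, and 4 without pool 2) and 2 lower (4 without pool 3). The median of the fit was 0.46, and it was 0.74, -0.21 and 0.47 in pools 2, 3 and 4 and -0.17 without pool 2. Grp, gastrin-releasing peptide, stood at 49.1, 61.2 and 52.3 CPM in TRAP and 20.6, 21.3 and 12.2 CPM in input (1.60, SE 0.18, adjusted p = 4.08e-07), and Trh, thyrotropin-releasing hormone, at 29.3, 18.8 and 42.5 CPM in TRAP and 7.81, 12.9 and 16.1 CPM in input (1.26, SE 0.24, adjusted p = 0.00034). Vip, the peptide of a class of interneurons, had at most 4 counts in a TRAP library and 6.32 to 9.32 CPM in input. Grp and Trh were higher in every TRAP library and Vip lower in every one.

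The 10 protein-coding genes with the largest log2 ratios, which the call and a mean of at least 10 CPM had selected, were Atg7 (2.97), Bahcc1 (2.96), Tnrc18 (2.82), Bcor (2.81), Gse1 (2.63), Kalrn (2.46), Prr12 (2.02), Egr2 (1.93), Ubr3 (1.81) and Yeats2 (1.79). The next gene lay at 1.78. Tnrc18, with a BAH domain, stood at 934, 829 and 1295 CPM in TRAP and 129, 168 and 128 CPM in input (SE 0.21, adjusted p = 0.000285), and its paralog Bahcc1 at 377, 326 and 484 CPM in TRAP and 52.1, 49.0 and 47.9 CPM in input (SE 0.12, adjusted p = 4.01e-15). Bcor, a corepressor of BCL6, stood at 156, 152 and 257 CPM in TRAP and 25.3, 22.6 and 30.9 CPM in input (SE 0.13, adjusted p = 5.31e-14). For these 3 genes the lowest TRAP library was several times the highest input, and TRAP pool 4 was the highest.

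The list of chromatin genes, like the others, was chosen with earlier results of these data known. Of its 31 tested members 7 were higher (22.6%) and 12 lower (38.7%), against 14.9 and 17.0% of all genes, with a median of -0.16. For Atg7, the activating enzyme of autophagy, 40.2% of exon stretches were not placed uniquely in the genome. Gse1 overlaps an antisense gene over 37.6% of its exon length. The counts of both genes are therefore less certain. The strand setting of the counting is not given in the sources used here. Prr12 stood at 677, 582 and 945 CPM in TRAP and 174, 181 and 171 CPM in input, and Ubr3, a ubiquitin ligase of the N-end rule family, at 588, 1064 and 1135 CPM in TRAP and 256, 228 and 277 CPM in input. TRAP pool 2 was the lowest for Ubr3 but still above all inputs. Of 27 tested exchange factors for small GTPases 4 were higher (14.8%, and 2 without pool 4) and 5 lower (18.5%), with a median of -0.01, shares close to the 14.9 and 17.0% of all genes. Kalrn lay at 2.46, Tiam1 at 0.64 and Prex2 at -2.69.

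At the other end, the 10 genes with the smallest log2 ratios under the same rule ran from Gm10925 (-5.75) and the haemoglobin gene Hbb-b1 (-5.17) to Mal (-3.99), and the next lay at -3.93. None of the 26 exon stretches of Gm10925 was placed uniquely in the genome, and 48.1% of those of Hbb-b1 were not. Between them lay, among others, the antigen presentation gene Cd74 (-4.48), the growth factor gene Igf2 (-4.38), the selenoprotein gene Sepp1 (-4.32), the microglial receptor gene Csf1r (-4.12) and the astrocyte genes Gpr37l1 (-4.11) and Hepacam (-4.05). Igf2, which the meninges and vessels make, stood at 5.58, 0.488 and 4.64 CPM in TRAP and 87.8, 70.3 and 58.4 CPM in input. Cd74 stood at 3.07, 0.732 and 0.733 CPM in TRAP and 65.6, 26.4 and 10.0 CPM in input, and its inputs were spread widely, pool 2 being the highest. Most of these genes are known from blood, glia, vessels or myelin.

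Across 11903 tested protein-coding genes of the nuclear genome the ratio moved with the length and base composition of the transcript. In 5 equal groups of genes, from the shortest exon length (171 to 2219 bases) to the longest (6601 to 116828 bases), the median log2 ratio was 0.21, 0.11, 0.03, -0.06 and -0.21. The share called higher went from 21.7% in the shortest group to 8.61% in the longest, and the share called lower from 9.07 to 32.4%. With marker genes of the cell type lists left out, the medians of the end groups were 0.21 and -0.20. Across genes, which are not independent replicates, Spearman's rank correlation was -0.274 for exon length, -0.164 for the coding part and -0.212 for the 3′ untranslated part. By exon GC content the medians rose from -0.16 in the lowest group to 0.17 in the highest (rank correlation 0.215). The order of the groups by exon length was the same in WT, and in KO the shortest group was above the longest in each pool. The 10 genes with the largest ratios do not follow the trend, with a median exon length of 7051 bases against 3961 for all and 2812 for the 10 with the smallest. The large proteins of the cytoskeleton and active zone that fell, such as Macf1, Dst and Pclo, have long transcripts and the respiratory chain and proteasome genes short ones (median exon lengths of 1990 and 2300 bases), and the part of length in these lists was not tested.

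**Figure D3:**
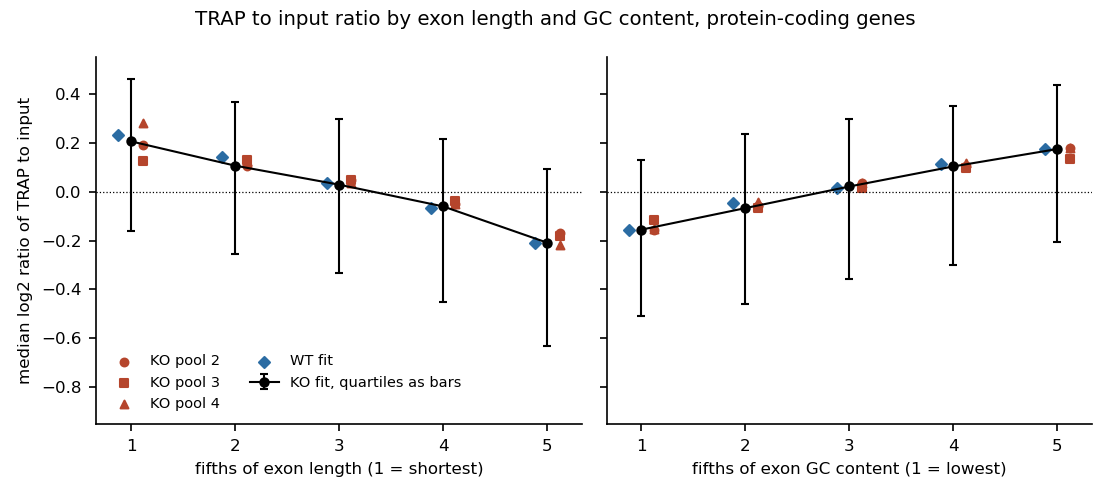
Median log2 ratio of TRAP to input (y axis) in 5 equal groups of these nuclear protein-coding genes by exon length (left) and exon GC content (right), for the KO fit (black, bars from the lower to the upper quartile of genes), each KO pool (red) and the WT fit (blue). The KO medians fall from 0.21 to -0.21 with length and rise from -0.16 to 0.17 with GC content, and pools and WT lie close to them.

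Other lists follow. The first holds 13 genes that the study names for its TRAP data, which is not independent evidence of their direction. Of them 9 (69.2%) were higher and 2 (15.4%) lower (1 without pool 4), against 14.9 and 17.0% of all genes. Their median was 0.51. Of 7 metabotropic glutamate receptor genes 2 were lower (28.6% against 17.0% of all genes, and 1 without pool 2) and none higher. Only 2 of 10 genes of choroid plexus and ependyma had enough counts, and both were lower (1 without pool 4). Of 306 Zfp genes 18 were higher (5.88%) and 28 lower (9.15%), below the 14.9 and 17.0% of all genes, with a median of 0.01. Of 26 histone genes 2 were higher and 2 lower (7.69% in each direction, below the shares of all genes). Without pool 3, 1 was higher, without pool 4 none was, and without pool 2, 1 was lower. Of 229 pseudogenes, whose reads are shared with their parent genes, 15 were higher (6.55%) and 7 lower (3.06%), also below the shares of all genes.

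The ratios in KO were set beside those in WT, whose libraries come from other mice. In WT 3303 of 12426 genes (26.6%) were called, 1605 higher and 1698 lower. Across 12108 genes tested in both, the log2 ratios correlated at Pearson's r = 0.878, and 2599 genes were called in the same direction in both genotypes, 65.4% of the KO calls and 78.7% of the WT calls, and 0 in opposite directions. Kalrn lay at 2.57 in WT, Slc1a2 at -2.28 and Malat1 at -6.26. In the test of the difference itself, 1 of 13214 genes (0.00757%) had a ratio that differed between KO and WT at an adjusted p under 0.05, and 389 (2.94%) at an unadjusted p under 0.05.

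That gene was Epas1 (chr17:87153247-87232750, plus strand), the hypoxia-inducible factor 2 alpha, known from endothelium and astrocytes. It stood at 6.97, 10.5 and 12.5 CPM in KO TRAP and 146, 144 and 130 CPM in KO input, while the WT libraries had 23.3, 22.8 and 23.6 CPM in TRAP and 116, 133 and 123 CPM in input. TRAP was far below input in both genotypes, all KO TRAP libraries were below all WT TRAP libraries, and the inputs overlapped. The log2 ratio was -3.81 (SE 0.17) in KO and -2.40 in WT, a difference of -1.39 (SE 0.24, edgeR adjusted p = 0.0499). The call was lost without KO pool 2 (adjusted p = 0.618), KO pool 3 (adjusted p = 0.131) or WT pool 3 (adjusted p = 0.370). The summed astrocyte markers in TRAP were 14.9 to 16.9% of input in the KO pools and 16.3 to 20.4% in the WT pools, and vascular markers 20.0 to 32.1% and 19.6 to 63.4%; their part in the difference was not tested.

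**Figure D4:**
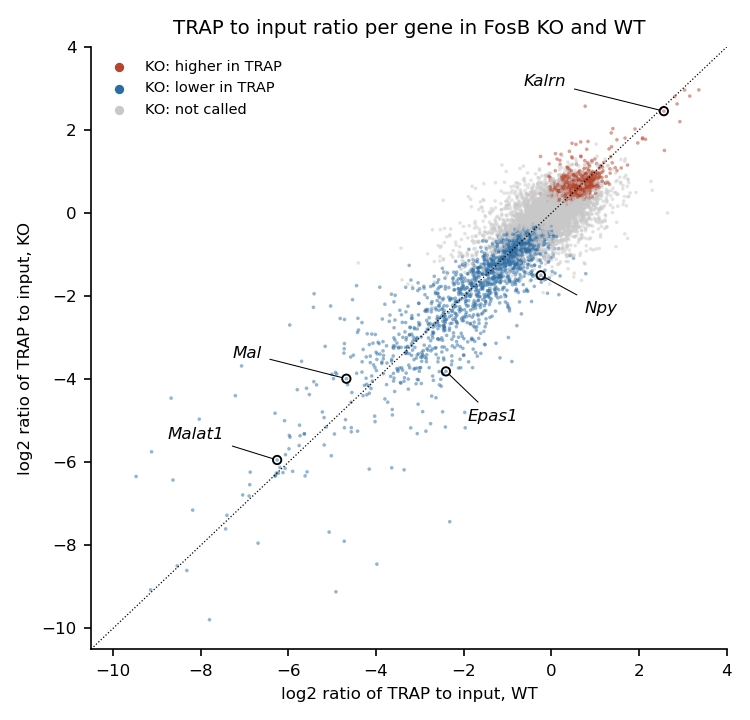
Log2 ratio of TRAP to input of each gene tested in both genotypes, in WT (x axis) and KO (y axis), coloured by the call in KO (red higher, blue lower, grey not called), with the line of equal ratios dotted and 5 genes circled. Points follow the line (r = 0.878) and Epas1 lies below it, at -2.40 in WT and -3.81 in KO.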

How the data were processed

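RNA of TRAP and input libraries was sequenced from a stranded total RNA kit. The authors deposited 1 table of whole-number read counts per gene and library, made per the labels and methods with TopHat on mm9 and HTSeq-count on Gencode vM1 (versions and strand setting not given in the sources used here). Lines starting with __ were dropped: reads outside genes were 21.1 to 27.1% of uniquely aligned reads in the KO libraries, and 4093298 to 5906752 alignments per KO library were not unique. Libraries were grouped by their labels. Same-numbered KO TRAP and input libraries come from the same mice, so the pool was a block. Their deviations from the group means correlated at 0.119, 0.080 and 0.084, against -0.084 to -0.009 for unlike numbers. Deviations cancel within a group, so the negative values follow from the positive ones and are no separate evidence. Pools are separate mice.

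TRAP was tested against input with edgeR 4.0.16 (R 4.3.3; TMM, filterByExpr by group with a minimum count of 10, robust quasi-likelihood test, Benjamini-Hochberg over all tested genes); the SE is the fitted log2 ratio divided by the root of F. KO and WT ratios were compared by an interaction term in all 12 libraries with the 6 pools as blocks. Ratios of single pools use a pseudocount of 0.5 CPM. Sign flips over 3 pools cannot go below p = 0.25, so single genes have no permutation test. The scripts were tested on simulated counts. Exon stretches are 75-base pieces of exons, taken every 25 bases and aligned to the genome with minimap2 2.31. A stretch was placed uniquely where a lone place fitted with at most 2 mismatches. Stretches without any such place count as not placed uniquely. Coordinates and sequences of genes are NCBIM37; promoters are RefSeq's (GRCm38.p6).

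Genes were named by rule: those the study names for its TRAP data, the 10 largest and 10 smallest ratios among called protein-coding genes of at least 10 CPM with 1 direction in 3 pools, the 3 highest mitochondrial and 3 highest noncoding genes, the 3 largest and 3 smallest called members of each list and members against its direction, and up to 5 genes in each direction of the KO and WT difference. Outside the rule, chosen after their values were seen, are Rpl10a, Npy, Gad1, Gad2, Slc32a1, Sst, Snap25, Rbfox3, Camk2a, Wfs1, Gfap, Slc1a2, Gapdh, Fos, Arc, Itpka, Mpped1, Gria2, Dusp1, Btg2, Ttr, and the noncoding loci beside AL596130.1, mmu-mir-689-2 and Malat1. The members and 31 lists (643 entries, 13 found by an older symbol, 2 not found) were chosen with earlier results of these data known. Members that failed the filter on low counts are left out of each list's counts. A few items are not reported here. Alternatives changed the normalization, filter, tool (DESeq2 1.42.0), block, dispersion, genes or libraries.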

Additional observations from a re-analysis of the deposited data

Results flagged for a closer look

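Epas1 was the gene whose TRAP to input ratio differed between genotypes in the test of the difference: KO minus WT was -1.39 on the log2 scale (SE 0.24, edgeR quasi-likelihood adjusted p = 0.0499), lower in KO in all 3 KO TRAP libraries than in all 3 WT TRAP libraries. Over 14 alternatives the difference ran from -1.64 to -1.18, with adjusted p from 3.06e-05 to 0.618, and the call was lost in 6 of them: total counts without a composition factor (0.0718), a minimum mean of 10 counts (0.0519), edgeR without robust dispersion (0.131), and without WT pool 3 (0.370), KO pool 2 (0.618) or KO pool 3 (0.131). With 13214 genes tested and 1 called, the result rests on the threshold, and it was not tested in other mice.

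Npy, a peptide of interneurons, missed the threshold. It stood at 19.8, 14.4 and 12.7 CPM in KO TRAP and 48.3, 41.9 and 39.9 CPM in KO input, while WT had 52.5, 41.4 and 24.4 CPM in TRAP and 64.1, 34.3 and 41.0 CPM in input. The difference of the ratios was -1.24 (SE 0.27, adjusted p = 0.851), and over the same alternatives it was called once, with no filter on low counts (adjusted p = 0.0450).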

How the results depend on the processing

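The number of genes called was 3977 with 3 pools and the block, 3626 with no replicate block (3596 of the 3977 among them) and 2816 to 3816 with a pool left out. DESeq2 called 2696, of which 1144 were higher in TRAP and 1552 lower, and 2693 were among the 3977. Genes called higher numbered 1174 to 1771 with a pool left out (1174 without pool 4 and 1263 without pool 2) and genes called lower 1642 to 2045. Total counts without a composition factor called 4255, of which 2321 were higher, and the other normalization, filter, dispersion and gene set alternatives and the fit of all 12 libraries called 3580 to 4178. No call changed sign under any alternative in which its gene was tested (3922 to 3977 of the 3977). DESeq2 called 11 immediate early genes higher in place of 17, 13 proteasome genes in place of 21, 5 translation factors in place of 10 and 4 secretory genes in place of 9. Of 244 named genes called, 166 kept the call under all alternatives and 78 lost it under at least 1. Of 35 list medians 3 changed sign, those of neuropeptides (-0.17 to 0.67), exchange factors for small GTPases and ribosomal proteins. The ratios of mmu-mir-689-2 and mmu-mir-2134-4, neither of them called, changed sign without pool 3 and ran from -0.041 to 0.37 and from -0.058 to 0.20 with a pool left out.

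The number of genes whose ratio differed between KO and WT, 1, was 0 with total counts, with a minimum mean of 10 counts and without robust dispersion, 2 with no filter, 1 with no replicate block, and 0 to 2 with a pool left out. The genes were not always Epas1: it was Sst without KO pool 2, and AC154124.1 and AY036118 without KO pool 3. The cause was not tested, except that fewer samples enter the fits without a pool. Depth limits what can be said of genes that 121 calls rest on, with at most 3 counts in every TRAP library.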
